A study of Mus musculus with 6 samples.

Results

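Cells sorted as quiescent muscle stem cells (qMuSCs) came from mice bred for loss of type 2 deiodinase (Dio2) and from controls. In them, 10 genes of hepatocyte growth factor (HGF), its receptor Met and the mTORC1 kinase pathway were followed. They are Hgf, Met, Mtor, Rptor, Tsc1, Tsc2, Rheb, Rps6kb1, Eif4ebp1 and Deptor, 10 of the 31053 genes in the count table. These genes were chosen by name for their place in the pathway, with earlier results of these data known. Of these, 9 passed the expression minimum, a mean above 10 normalized counts over the mice, and Hgf did not. The cells were sorted for GFP driven by Pax7 from hindlimb muscles of resting mice aged 3 to 4 months, with a library for each of 3 WT and 3 cD2KO mice. The WT mice are named c124, c129, c130, the cD2KO mice are named fl125, fl126, fl128, and values below stand in this order. WT mice carried Pax7nGFP/+, Pax7+/+ and Dio2Fl/Fl, and cD2KO mice carried Pax7nGFP/+, Pax7-CreERT2/+ and Dio2Fl/Fl. Tamoxifen was given to both groups, and only cD2KO mice carried the Cre allele, so that its presence cannot be told apart from the loss of Dio2. CreERT2 under Pax7 limits that loss to Pax7-expressing cells, and the paper reports it in most, but not all, of the qMuSCs.

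HGF is released in an inactive form and, once cut by proteases such as the HGF activator, binds the receptor tyrosine kinase Met. In muscle stem cells this signal raises mTORC1 activity and brings the cells into GAlert, a state between quiescence and the cell cycle in which they are larger and enter division sooner after injury. mTORC1 consists of the kinase mTOR, the scaffold Raptor and smaller partners. It is switched on by the GTPase Rheb, held off by the Tsc1 and Tsc2 complex, and acts through S6 kinases and the 4E-BP repressors of translation. Most of these steps are phosphorylations, which counts of RNA do not show.

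Total counts ranged from 2184073 to 3897787 per mouse, so that 3 counts stood for 0.773 to 1.37 CPM (counts per 1000000, after scaling of the libraries with TMM factors). Dio2, the targeted gene, had 21, 5 and 10 counts in WT against 15, 5 and 1 counts in cD2KO mice. Its means were 3.58 ± 1.78 and 2.96 ± 3.43 CPM (SD, n = 3 mice each, p = 0.7 in a two-sided exact permutation test, which cannot go below 0.1 with so few mice). The library labelled fl125 held the highest Dio2 level of the 6, against its label, although counts over the whole gene do not separate the floxed part from the rest. The same library stood apart on the first principal component, at 72.6 against -50.7 to 7.52 in the other mice, and values without it are given below for the calls it touches. Of the defining markers of muscle stem cells, Pax7 was at 213 to 691 CPM and Myf5 at 28.9 to 59.7 CPM. The 14 muscle stem cell markers summed to 1617 to 2093 CPM in WT and to 2410 to 2554 CPM in cD2KO mice. Markers of other cells were also present, with summed levels of 5279 to 8238 CPM for 7 Schwann cell genes over all mice. The sum for 11 mural cell genes was 5604 to 9525 CPM in WT and 11359 to 16594 CPM in cD2KO mice, most of it from the contractile genes Acta2 and Myh11. Of these 11 genes 5 were called higher and 0 lower, with a median log2 fold change of 0.34. The pericyte markers Rgs5, Pdgfrb, Kcnj8 and Abcc9 were at 0.0025, -0.062, -0.36 and -0.23, and Cspg4 and Higd1b at 0.25 and 0.34. None of these pericyte markers was called. Of 12 endothelial markers 11 were tested, 6 were called lower and 0 higher, with a median log2 fold change of -1.24, and their sum was 302 to 451 CPM in WT against 264 to 318 CPM in cD2KO mice. The 10 muscle fiber markers summed to 1813 to 4193 CPM in WT and to 3237 to 6135 CPM in cD2KO mice. Of these 1 was called higher and 0 lower, with a median log2 fold change of 0.52. In such bulk samples fewer cells of a type and less RNA per cell cannot be told apart.

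Genes were called by the quasi-likelihood test of edgeR at an unadjusted p under 0.05. Of the 9 tested members, 0 were called higher and 0 lower in the sorted cD2KO samples. Of all 11633 tested genes, 5.34% were called higher and 6.62% lower. The lowest unadjusted p among the members was 0.0931 and the lowest Benjamini-Hochberg adjusted p over all genes tested was 0.512 in this edgeR fit. DESeq2 and limma voom also called 0 of the 9 at an unadjusted p under 0.05. Log2 fold changes (cD2KO over WT) ran from -0.42 for Rps6kb1 to 0.25 for Rptor, with a median of 0.015 against -0.020 over all genes tested. Above 0 lay 6 of the 9, against 5595 of all 11633 genes tested. In 0 of the 9 did all cD2KO mice lie on one side of all WT mice, against 18.1% of all genes tested. These fits do not show that the levels were alike, since the 95% intervals reached from a fold of 0.489 (Met) to a fold of 1.74 (Eif4ebp1). When single mice were left out, Rps6kb1 was called lower without c124 and without the library labelled fl125, with log2 fold changes of -0.56 and -0.53 (unadjusted p = 0.0444 and 0.0385 in edgeR), and no other member was called in any of the 6 fits.

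**Figure D1:**
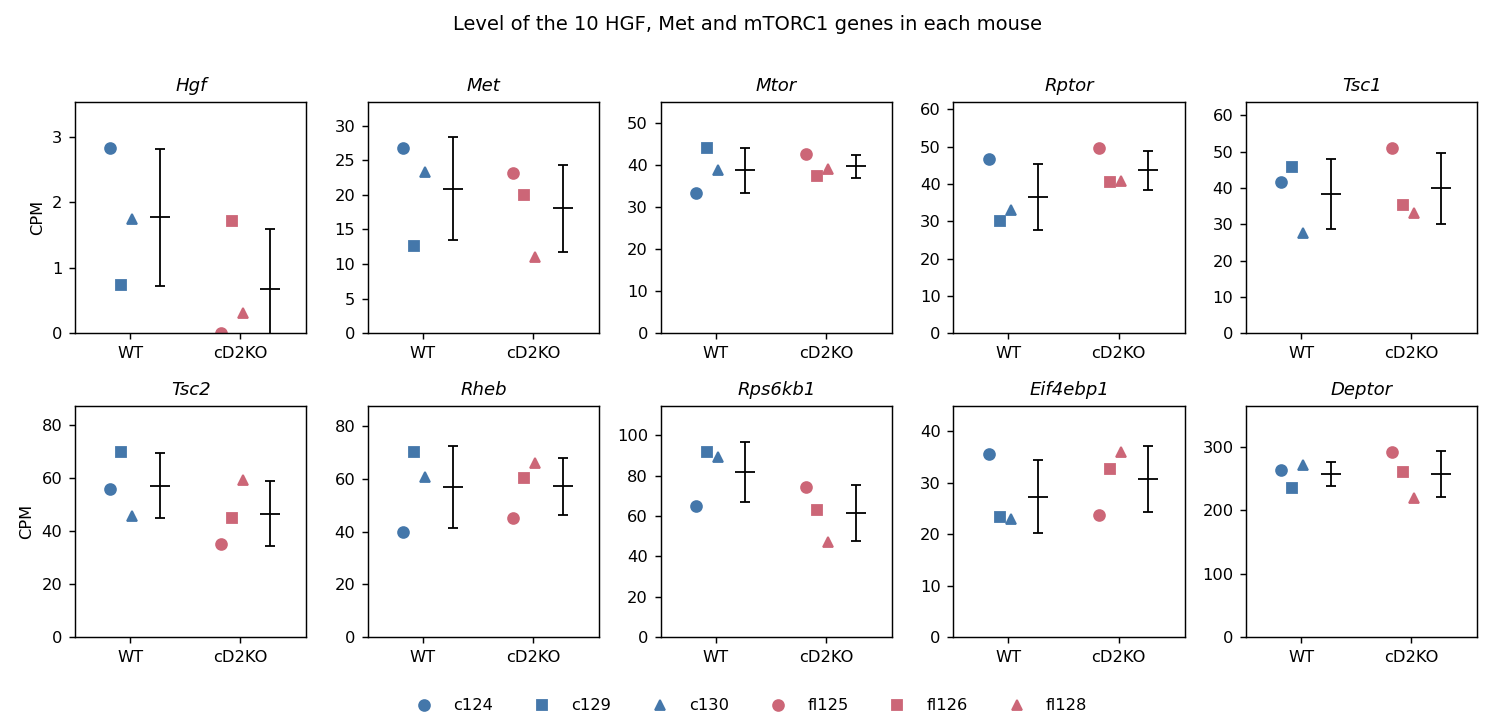
CPM of each of the 10 genes (linear axis from 0, with its own scale in each panel) in the 3 WT mice (blue) and the 3 cD2KO mice (red), each symbol standing for a mouse, with the mean and SD in black beside them (the SD bar of Hgf in cD2KO is cut at 0). In every panel the groups overlap.

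The promoters of Met and Rheb were the member promoters that held an E-box (CACGTG), the palindrome recognised by Myc and by Tfeb, a transcription factor that mTORC1 phosphorylates, and their sequences are shown for that reason. RefSeq promoters of build GRCm38.p6, from 250 bases before the start of transcription to 50 bases after it, were matched for 8 of the 10 members, with 2 starts for Hgf. Those of Eif4ebp1 and Deptor were not matched. The E-box is in capitals, and the sequences read 5′ to 3′ on the strand of the gene, which is the plus strand for Met (chr6:17463707-17464006) and the minus strand for Rheb (chr5:24842312-24842611).
Met: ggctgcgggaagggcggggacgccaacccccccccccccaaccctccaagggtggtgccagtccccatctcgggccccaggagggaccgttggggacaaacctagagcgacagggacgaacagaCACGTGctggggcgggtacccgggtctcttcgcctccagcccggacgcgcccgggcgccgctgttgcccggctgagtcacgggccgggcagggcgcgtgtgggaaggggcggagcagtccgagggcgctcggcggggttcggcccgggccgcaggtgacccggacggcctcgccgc
Rheb: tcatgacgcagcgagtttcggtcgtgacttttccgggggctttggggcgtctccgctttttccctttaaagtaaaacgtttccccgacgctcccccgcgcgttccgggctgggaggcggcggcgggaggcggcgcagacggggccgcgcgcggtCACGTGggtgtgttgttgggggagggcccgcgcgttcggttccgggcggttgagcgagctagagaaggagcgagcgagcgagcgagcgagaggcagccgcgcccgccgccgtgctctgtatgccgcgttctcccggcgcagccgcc
The E-box begins 126 bases before the RefSeq start of transcription in Met and 96 bases before that in Rheb. The gene spans given below, from GENCODE M21, begin further upstream. Their 5′ ends are at 17463800 for Met and at 24842624 for Rheb, so that both E-boxes lie inside these spans. Searched on both strands, the E-box occurs in 7.15% of the 32851 promoters in the table. The half-site AGGTCA, which thyroid hormone receptors bind, occurs in 16.3% of these promoters and in 0 of the 9 member promoters. The direct repeat of this half-site with 4 bases of any kind between the copies, in which every match also holds the half-site, occurs in 0.0152% of all promoters and in 0 of the 9. These searches describe letters in a window and not binding. The Met promoter was rich in G and C, at 75.7% against a median of 52.7% over the table, and that of Rheb was at 70.0%.

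Hgf, the ligand, was close to the limit of detection in both groups. The gene (ENSMUSG00000028864) lies on the plus strand of chromosome 5 of mm10 from 16553495 to 16620152. Hgf shares 484 exonic bases with Gm43489 on the same strand, a gene absent from the count table. It had 11, 2 and 5 counts in WT mice against 0, 5 and 1 counts in cD2KO mice. This was 2.83, 0.743 and 1.74 CPM in WT, and 0, 1.72 and 0.316 CPM in cD2KO. The groups overlap, since fl126 lies among the WT mice, and 3 of the 6 libraries had fewer than 3 counts. The means were 1.77 ± 1.05 CPM and 0.678 ± 0.915 CPM (SD, n = 3 mice each, p = 0.2 in a two-sided exact permutation test), and a difference was not detectable at this depth. Fibroadipogenic progenitors of muscle are known to make HGF. The 12 markers of these cells summed to 3934 to 6497 CPM in WT and to 2424 to 5353 CPM in cD2KO mice, and of 11 tested markers 3 were called lower and 1 higher. Pdgfra, their defining surface marker, was at 4.89 to 9.28 CPM in WT and at 0.911 to 5.68 CPM in cD2KO, and Pi16 was at 0 in fl125. Their part in the Hgf level was not tested.

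Around the ligand, Hgfac, which encodes the HGF activator and is expressed mainly in liver, had 0 counts in all 6 mice, and a count of 0 allows up to 0.773 to 1.37 CPM per library. Of 15 listed genes that activate HGF, inhibit its activation or carry heparan sulfate at the cell surface, 7 were tested, and 1 was lower and 0 were higher. This was Sdc3, which encodes syndecan-3, a heparan sulfate proteoglycan of the muscle stem cell surface. Sdc3 was at 44.3, 60.9 and 51.2 CPM in the WT mice and at 24.6, 36.5 and 29.4 CPM in the cD2KO mice, so that the groups do not overlap. Its log2 fold change was -0.78 (SE 0.25, unadjusted p = 0.00783, adjusted p = 0.204 in edgeR), and it was called in all 6 fits that left out a mouse. The endothelial and fibroadipogenic markers given above, and the immune markers given below, also had lower members, and their part in the Sdc3 level was not tested.

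Met (ENSMUSG00000009376), the receptor, lies on the plus strand of chromosome 6 from 17463800 to 17573980. It had 104, 34 and 67 counts in WT mice against 51, 58 and 35 counts in cD2KO mice. After scaling it was at 26.8, 12.6 and 23.3 CPM in WT mice, and in cD2KO mice at 23.2, 19.9 and 11.1 CPM. A WT and a cD2KO mouse, c129 and fl128, were both low, and the other mice lay between 19.9 and 26.8 CPM. The log2 fold change was -0.23 (95% interval -1.03 to 0.58, adjusted p = 0.876 in edgeR), with the largest standard error of the tested members, 0.37. It was -0.46 without c129 and 0.035 without fl128, so that its sign rested on single mice. Among the tested genes whose log2 CPM followed Met most closely over the 6 mice, by the root mean square difference of values centred on their mean, were Tmem158 (0.0997), Ntan1 (0.120), Rpl7a (0.133) and Polr2b (0.146). Among 11633 genes and 6 mice many patterns lie close by, and these names are given as a description.

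Downstream of Met, 29 of 31 listed adaptors and effectors were tested, of which 3 were higher and 0 lower, and their median log2 fold change was 0.018. Crkl, an adaptor protein that docks on phosphorylated Gab1, was higher at 48.7, 49.2 and 45.2 CPM in cD2KO against 27.0, 36.8 and 33.8 CPM in WT. Plxnb1, a semaphorin receptor that associates with Met, was higher at 73.8, 74.6 and 79.9 CPM against 57.7, 42.0 and 60.2 CPM. In both genes all cD2KO mice lay above all WT mice. Mapk3, which encodes the kinase ERK1, was higher with overlapping groups. The log2 fold changes of Crkl, Plxnb1 and Mapk3 were 0.56, 0.51 and 0.57 (unadjusted p = 0.0351, 0.0305 and 0.0299, adjusted p = 0.379, 0.368 and 0.367 in edgeR). Each of these calls was lost in 3 of the 6 fits without a mouse, with c124, c130 or fl126 left out for Crkl, c129, fl126 or fl128 for Plxnb1, and c129, c130 or fl126 for Mapk3. With all mice, scaling to the total count also ended the calls of Crkl and Plxnb1 (unadjusted p = 0.0671 and 0.0529 in edgeR).

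The subunits of mTORC1 itself came next, beginning with the kinase. Mtor (ENSMUSG00000028991, chromosome 4, plus strand, 148448611 to 148557683) was at 33.5, 44.2 and 39.0 CPM in WT mice, compared with 42.8, 37.5 and 39.2 CPM in cD2KO mice. All 3 cD2KO mice lay within the range of the WT mice. The means were 38.9 ± 5.35 and 39.8 ± 2.72 CPM (SD, n = 3 mice each). Between them the log2 fold change was 0.036 with a 95% interval from -0.47 to 0.55.

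Rptor (ENSMUSG00000025583, chromosome 11, plus strand, 119602905 to 119899576) encodes Raptor, which presents substrates to the kinase. It was at 46.6, 30.1 and 33.1 CPM in WT and at 49.6, 40.6 and 40.7 CPM in cD2KO mice. The WT mouse c124 lay above fl126 and fl128, and the other WT mice lay below all cD2KO mice. The log2 fold change of 0.25 was the highest of the members (95% interval -0.30 to 0.79, adjusted p = 0.766 in edgeR), and it was 0.46 without c124. Rptor shares 84 exonic bases with Rptoros on the opposite strand, which had at most 1 count per mouse.

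Deptor (ENSMUSG00000022419, chromosome 15, plus strand, 55112317 to 55259271) encodes a protein that binds mTOR and restrains it. With 633 to 1024 counts per mouse it had the highest counts of the members and the lowest standard error, 0.19. It was at 264, 235 and 271 CPM in WT and at 292, 260 and 219 CPM in cD2KO, where the highest and the lowest of the 6 mice were both cD2KO. The log2 fold change was 0.00029 with a 95% interval from -0.41 to 0.41, or folds from 0.751 to 1.33. Deptor shares 303 exonic bases with Gm9920 on the opposite strand, a gene absent from the count table.

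Of the partners of the mTOR complexes outside the 10 genes, 8 of 9 were tested and 0 were called. Of the 8 log2 fold changes, 7 were above 0 (median 0.30), against 5595 of all 11633 genes tested (median -0.020). Akt1s1, which encodes PRAS40, an inhibitor that binds Raptor, was at 30.4, 29.0 and 36.9 CPM in WT and at 41.9, 48.2 and 46.7 CPM in cD2KO, without overlap of the groups. Its log2 fold change was 0.51 with an unadjusted p of 0.0505 (adjusted p = 0.419 in edgeR), and over the other tests, scalings and minima its unadjusted p ranged from 0.0404 to 0.0878. Mlst8, the small subunit next to the kinase domain, had a log2 fold change of 0.29 (95% interval -0.32 to 0.91) and the groups overlapped. Akt1s1 shares 89 exonic bases with Tbc1d17 and Mlst8 shares 997 with Bricd5 on the opposite strand. The use of strand in counting is not given in the sources used here, so that such reads are uncertain.

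**Figure D2:**
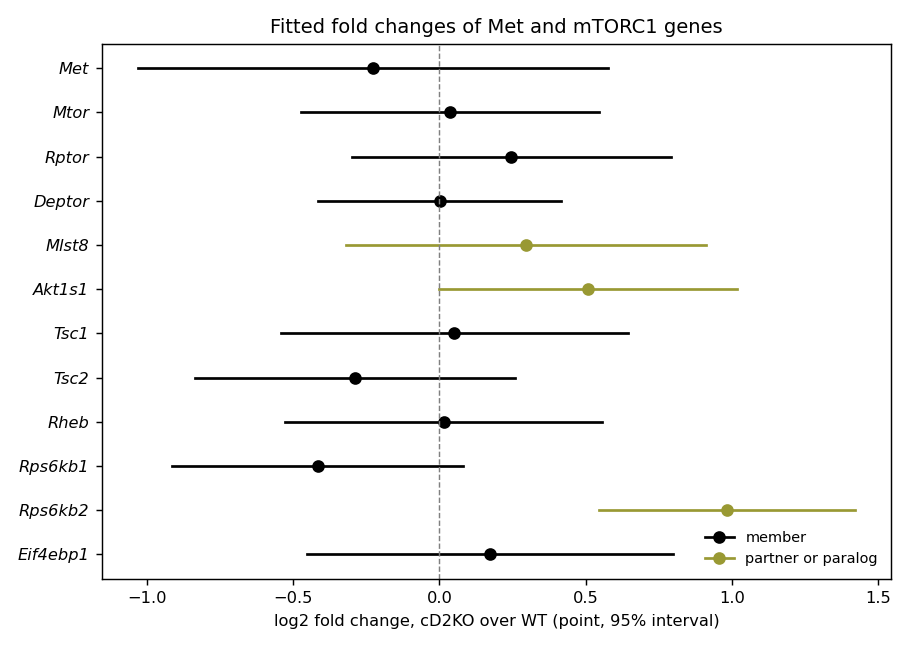
Log2 fold change (cD2KO over WT, 3 mice each) from the edgeR fit with its 95% interval for the 9 tested members (black) and for 2 partners of mTORC1 and the S6 kinase paralog Rps6kb2 (olive). The intervals of all 9 members cross 0, and that of Rps6kb2 runs from 0.54 to 1.42.

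Upstream of the kinase stand Rheb and the Tsc complex that turns it off. Rheb (ENSMUSG00000028945, chromosome 5, minus strand, 24802823 to 24842624) was at 39.9, 70.2 and 60.6 CPM in the WT mice and at 45.1, 60.2 and 66.0 CPM in the cD2KO mice. All 3 cD2KO mice lay inside the WT range. Rheb had a log2 fold change of 0.015 (95% interval -0.53 to 0.56).

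Tsc1 (ENSMUSG00000026812, chromosome 2, plus strand, 28641228 to 28691167) encodes hamartin, which stabilises the complex. Its level was 41.7, 45.7 and 27.5 CPM in WT and 51.0, 35.4 and 33.2 CPM in cD2KO mice. The highest mouse was the library labelled fl125 and the lowest was the WT mouse c130. For Tsc1 the log2 fold change was 0.051 (95% interval -0.54 to 0.64), and it turned to -0.14 without c130 and to -0.12 without fl125.

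Tsc2 (ENSMUSG00000002496, chromosome 17, minus strand, 24595816 to 24632630) encodes tuberin, the GTPase-activating subunit. It was at 55.9, 69.8 and 45.6 CPM in WT and at 35.1, 45.1 and 59.4 CPM in cD2KO. In fl125 and fl126 it was lower than in every WT mouse, and in fl128 it lay among them. Between the groups Tsc2 had a log2 fold change of -0.29 (95% interval -0.84 to 0.26, adjusted p = 0.724 in edgeR), -0.086 without the library labelled fl125 and -0.51 without fl128. Tsc2 shares 693 exonic bases with Pkd1 on the opposite strand, which had 292 to 611 counts per mouse, so its counts are uncertain by the reads in that stretch.

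Of the 24 regulators of the Tsc complex and Rheb that were listed and tested, 1 was higher and 2 were lower. Prkag2, which encodes a gamma subunit of AMP-activated kinase (AMPK), the energy sensor that activates Tsc2 and inhibits Raptor, was higher. It was at 30.9, 28.6 and 39.3 CPM in WT and at 72.0, 55.0 and 53.4 CPM in cD2KO, and all cD2KO mice lay above all WT mice. Its log2 fold change was 0.86 (SE 0.24, unadjusted p = 0.00299, adjusted p = 0.146 in edgeR), and Prkag2 was called in all 6 fits that left out a mouse. Over the other tests, scalings and minima its adjusted p ranged from 0.0326 in edgeR without a minimum to 0.181 in limma voom. Of the 6 AMPK subunit genes in the list it was the only one called. The summed mural and muscle stem cell markers given above were also higher in every cD2KO mouse than in every WT mouse. Their part in the Prkag2 level was not tested. The catalytic subunits Prkaa1 and Prkaa2 had log2 fold changes of -0.21 and 0.68 (unadjusted p = 0.506 and 0.0840 in edgeR). The kinases Akt1 and Akt2, which inhibit Tsc2, had log2 fold changes of 0.26 and 0.11 and were not called.

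The lower regulators were Inpp5d and Rps6ka1. Inpp5d encodes the inositol phosphatase SHIP1 of blood cells and was at 12.9, 39.0 and 21.9 CPM in WT and at 1.37, 4.82 and 10.4 CPM in cD2KO (log2 fold change -2.08, SE 0.59, unadjusted p = 0.00430, adjusted p = 0.165 in edgeR). It was called in all 6 fits that left out a mouse, at -2.91 without fl128, -1.62 without fl125 and -1.57 without c129. The adjusted p of Inpp5d ranged from 0.000301 in edgeR without a minimum and 0.0195 in DESeq2 to 0.278 in limma voom. Rps6ka1, which encodes the kinase RSK1, overlapped between the groups (log2 fold change -0.94, unadjusted p = 0.0467, adjusted p = 0.409 in edgeR), and it was -0.36 without c129, with an unadjusted p of 0.424. Rps6ka1 was also not called without fl125, fl126 or fl128, nor with all mice in DESeq2, in edgeR with DESeq2 size factors or in limma voom (unadjusted p = 0.0564, 0.0513 and 0.121). The 14 immune cell markers summed to 3975 to 7147 CPM in WT and to 223 to 2322 CPM in cD2KO. Of the 14, 5 were called lower and 0 were called higher, and none was at 0 in a mouse. Rps6ka1 did not keep the order of these sums, at 11.1 CPM in the WT mouse c130 and at 11.7 CPM in fl128. Ptprc, the marker of all leukocytes, was at 18.3 to 69.8 CPM in WT and 4.10 to 15.8 CPM in cD2KO. The part of immune cells in these results was not tested.

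In the amino acid arm, through which Rag GTPases bring mTORC1 to the lysosome, 29 of 33 listed genes were tested, and 0 were higher and 1 was lower. The lower gene was Sesn1, which encodes a sestrin, an inhibitor of mTORC1 upstream of the Rags. Sesn1 was at 80.9, 107 and 86.0 CPM in WT and at 61.0, 68.1 and 62.8 CPM in cD2KO, without overlap. Its log2 fold change was -0.51 (SE 0.20, unadjusted p = 0.0237, adjusted p = 0.341 in edgeR), and the call was lost without c129, fl125 or fl128, with log2 fold changes of -0.36, -0.44 and -0.50. Of the sestrins Sesn2 and Sesn3 were not called (0.65 and -0.50), although in Sesn3 all cD2KO mice also lay below all WT mice. The 3 tested Rag genes (-0.15 to 0.35) and the 5 Ragulator genes Lamtor1 to Lamtor5 (-0.08 to 0.34) were not called. Neither were 6 genes of the GATOR1 and KICSTOR complexes (-0.096 to 0.61). In this arm the groups did not overlap in 5 tested genes, or 17.2%, against 18.1% of all genes tested.

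**Figure D3:**
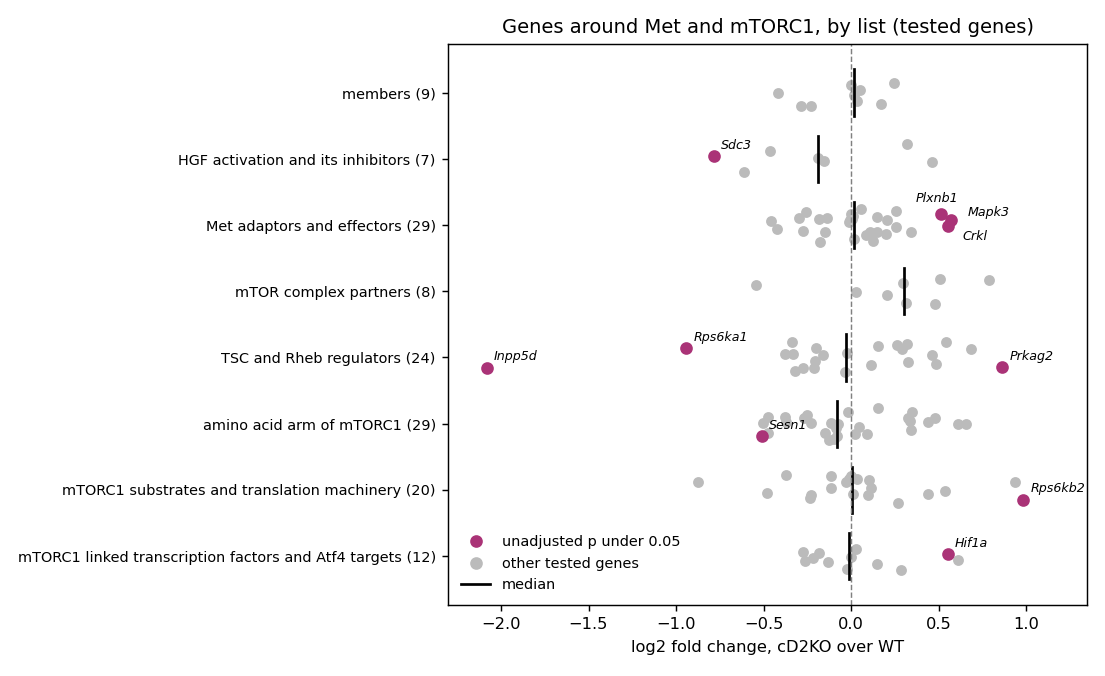
Log2 fold change (cD2KO over WT) of each tested gene of the 10 members and of the 7 lists around them (vertical position within a list is arbitrary, the number of tested genes is in parentheses), with medians as black bars and genes at an unadjusted p under 0.05 in edgeR in purple with their names. Called genes lie on both sides of 0 and no list has more than 3 of them.

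Among the substrates of mTORC1, the genes of the S6 kinases had fold changes of opposite sign, of which the rise of Rps6kb2 passed the test and the value of Rps6kb1 did not. Rps6kb1 (ENSMUSG00000020516, chromosome 11, minus strand, 86498871 to 86544805) encodes S6K1, which phosphorylates ribosomal protein S6. It had 252, 247 and 256 counts in WT mice against 163, 183 and 149 counts in cD2KO mice. After scaling it was at 64.9, 91.7 and 89.1 CPM in WT and at 74.2, 62.9 and 47.1 CPM in cD2KO. In fl126 and fl128 it lay below every WT mouse, and the groups overlap through c124 and fl125. The log2 fold change was -0.42 (95% interval -0.91 to 0.079, unadjusted p = 0.0931, adjusted p = 0.512 in edgeR), the lowest of the members. It stayed below 0 in all 6 fits that left out a mouse, from -0.56 without c124 to -0.26 without fl128. Rps6kb1 shares 155 exonic bases with Rnft1 on the opposite strand, which had 10 to 56 counts per mouse.

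Rps6kb2 (ENSMUSG00000024830), the paralog that encodes S6K2 and is not one of the 10 genes, was higher in the sorted cD2KO samples. It was at 49.2, 53.5 and 41.1 CPM in WT and at 91.1, 104 and 88.7 CPM in cD2KO, so that the lowest cD2KO mouse was well above the highest WT mouse. Between the groups its log2 fold change was 0.98 (SE 0.20, 95% interval 0.54 to 1.42, unadjusted p = 0.000280, adjusted p = 0.0885 in edgeR), a fold of 1.98. It was called at an unadjusted p under 0.05 in all 6 fits that left out a mouse, with log2 fold changes from 0.88 to 1.09, and stood at 1.05 without the library labelled fl125. Over the other tests, scalings and minima its adjusted p ranged from 0.00228 to 0.139. Rps6kb2 shares 1224 exonic bases with Ptprcap on the opposite strand, a leukocyte gene with 11 to 38 counts in WT and 6 to 10 in cD2KO mice. It also shares 45 with Coro1b. What these shared stretches add to the count of Rps6kb2 was not tested. The summed mural markers, carried by Acta2 and Myh11, and the summed muscle stem cell markers, of which 4 of 14 were called higher and 1 lower, were also higher in every cD2KO mouse than in every WT mouse. Their part in the result was not tested.

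Because a ratio within a library does not depend on scaling, the counts of both S6 kinase genes were set against each other, a comparison chosen after the values were seen. There were 0.758, 0.583 and 0.461 counts of Rps6kb2 for each count of Rps6kb1 in WT mice, compared with 1.23, 1.66 and 1.89 in cD2KO mice. Rps6kb1 had more counts in every WT mouse and Rps6kb2 in every cD2KO mouse. Such counts do not compare the levels of the 2 genes, whose exons cover 8658 bases in Rps6kb1 and 5167 in Rps6kb2. A ratio above or below 1 thus does not show which gene was expressed more. The mean ratio was 0.601 ± 0.149 in WT and 1.59 ± 0.334 in cD2KO (SD, n = 3 mice each, p = 0.1 in a two-sided exact permutation test, its lower bound here). The groups were already apart in Rps6kb2, and Rps6kb1 had a fold change of the other sign. This p therefore follows largely from the choice of genes and is no further evidence. The sum of both genes overlapped between the groups, with means of 130 ± 15.5 and 156 ± 17.6 CPM (SD, n = 3 mice each, p = 0.2 in a two-sided exact permutation test).

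**Figure D4:**
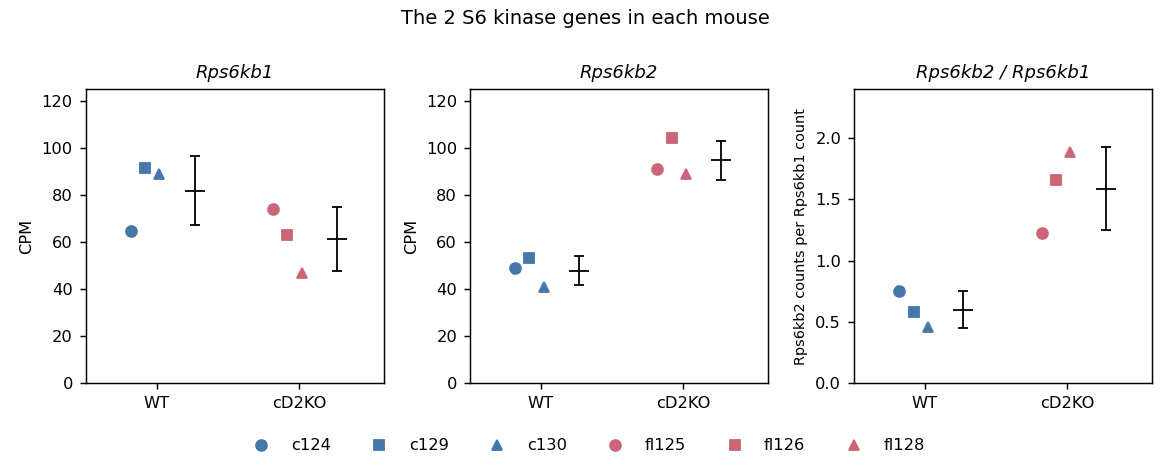
CPM of Rps6kb1 and Rps6kb2 and the ratio of their counts (linear axes from 0) in the 3 WT mice (blue) and the 3 cD2KO mice (red), each symbol standing for a mouse, with mean and SD in black. Rps6kb1 overlaps between the groups, whereas Rps6kb2 and the ratio do not, with ratios up to 0.758 in WT and from 1.23 in cD2KO. The ratio was chosen after the values of both genes were seen and restates them.

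Eif4ebp1 (ENSMUSG00000031490, chromosome 8, plus strand, 27260329 to 27276674) encodes 4E-BP1, which holds the cap-binding protein eIF4E until mTORC1 phosphorylates it. It had 138, 63 and 66 counts in WT and 52, 95 and 114 counts in cD2KO mice, or 35.5, 23.4 and 23.0 CPM and 23.7, 32.7 and 36.0 CPM. In each group the lowest mouse was at 23.0 to 23.7 CPM and the highest at 35.5 to 36.0 CPM. For Eif4ebp1 the log2 fold change was 0.17 (95% interval -0.45 to 0.80, adjusted p = 0.879 in edgeR), with values from 0.044 without fl128 to 0.41 without c124. Its paralog Eif4ebp2 and its target Eif4e had log2 fold changes of 0.44 and 0.0093 and were not called, and Eif4ebp3 had 0 counts in all mice. Eif4ebp3 shares 501 of its 744 exonic bases with AC115631.1 on the same strand, a gene absent from the count table. Whether this overlap affected the counting of Eif4ebp3 is not known, so that this 0 is uncertain.

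Of the 21 listed substrates and translation genes besides the members, 20 were tested, and Rps6kb2 was the only one called. Rps6, which encodes the ribosomal protein that S6 kinases phosphorylate, was at 36.3, 20.8 and 20.9 CPM in WT and at 34.6, 7.22 and 2.53 CPM in cD2KO. Here fl126 and fl128 lay below every WT mouse and the library labelled fl125 lay among them. Its log2 fold change was -0.87 (SE 0.84, unadjusted p = 0.334, adjusted p = 0.755 in edgeR), and it was -2.39 without fl125, with an unadjusted p of 0.000158, and -1.79 in limma voom with all mice, with an unadjusted p of 0.0134. Ribosomal protein genes have many processed pseudogenes in the genome, so that counts of Rps6 are uncertain.

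Among 18 transcription factors linked to mTORC1 and targets of Atf4, 12 were tested, 1 was higher and 0 were lower. Hif1a, the oxygen-regulated factor whose mRNA is translated more when mTORC1 is active, was higher at 63.8, 88.0 and 93.5 CPM in cD2KO against 58.7, 47.5 and 61.3 CPM in WT, without overlap. Its log2 fold change was 0.55 (SE 0.22, unadjusted p = 0.0247, adjusted p = 0.346 in edgeR), and the call was lost without c129, fl126 or fl128. Atf4 itself, which mTORC1 induces through translation, was at 600.1 ± 138 and 599 ± 110 CPM (SD, n = 3 mice each) in WT and cD2KO (log2 fold change -0.0024).

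Over the 7 lists of 151 genes, 6 genes, or 4.65% of those that passed the minimum, were higher and 4, or 3.10%, were lower, beside shares of 5.34% and 6.62% among all genes tested. Without the library labelled fl125, 10 were higher and 8 lower of the listed genes (3 and 3 without fl126), and 933 were higher and 874 lower of all 11769 genes tested in that fit. With all mice the median log2 fold change of the listed genes was -0.0019. In 18 of the listed genes, or 14.0% of those tested, the groups did not overlap, against 18.1% of all genes tested. At an adjusted p under 0.05 in edgeR with TMM, the minimum and all mice, 0 of the members and 0 of the listed genes passed, whereas 1 gene, or 0.00860%, did among all genes tested. Of the named genes outside the 10, Rps6kb2 and Inpp5d passed in DESeq2, Rps6kb2, Inpp5d and Prkag2 in edgeR without a minimum, and Rps6kb2 and Rps6 without the library labelled fl125 (adjusted p = 0.0228 and 0.0220 in edgeR).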

How the data were processed

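Raw counts of reads per gene were deposited for qMuSCs of 3 WT and 3 cD2KO mice, 1 column per mouse, without normalization. The authors purified RNA on RNeasy columns and mapped reads to mm10 by STAR. The submitters' processing notes name bcl2fastq, STAR 2.6.0a and HTSeq 0.9.1. Which annotation and strand setting were used and how duplicates were handled is not given in the sources used here. Groups follow the genotype labels, which name no batch and no litter, so p-values measure the spread between these mice.

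Symbols and coordinates came from GENCODE M21 for mm10, which held 31011 of the 31053 identifiers. A gene was tested where its counts, divided by DESeq2 size factors, averaged more than 10 over the mice (11633 genes). The counts of these genes were scaled with TMM, and edgeR 4.0.16 (R 4.3.3) fitted its robust quasi-likelihood model to the 6 mice without covariates. Benjamini-Hochberg adjustment covered every gene tested. A gene was called at an unadjusted p under 0.05, as in the study. Standard errors are the log2 fold change over the square root of F, and 95% intervals use the t quantile of the fit. Genes outside the fit were compared by two-sided exact permutation tests on CPM, computed with the scaled library sizes. Log2 CPM had a prior count of 2. Limits at a count of 0 take 3 counts and cover counting error only. The members and lists were chosen with earlier results of these data known.

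Named genes are the 10 members, Dio2, Hgfac, Mlst8, Akt1s1 and Rps6, up to 6 genes per list and direction with an unadjusted p under 0.05, and the 5 genes closest to Met, apart from results not reported here. Other pathway genes and the markers were named after their values were seen, as were the complexes. Of 151 pathway symbols, 150 were found. Alternatives were DESeq2 1.42.0, limma 3.58.1 with voom, other scalings and minima, an adjusted threshold and leaving out each mouse. The tests were first tested on simulated counts.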

Additional observations from a re-analysis of the deposited data

How the results depend on the processing

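Of the members, 0 were called higher in every alternative run and 0 lower in all but leaving out single mice (0 to 1). Single mice left out gave 3 to 10 higher and 3 to 8 lower pathway genes, and 402 to 933 higher and 399 to 874 lower genes in all. DESeq2 size factors in edgeR gave 10 higher pathway genes. Testing without a minimum also gave 10, and 939 higher genes in all. Scaling to the total count gave 7 lower pathway genes, and 439 higher and 953 lower genes in all against 621 and 770 with TMM, with a median log2 fold change over all genes of -0.086. In the fit with TMM, the minimum and all mice, an adjusted p under 0.05 left 0 pathway genes higher and 0 lower, and 1 gene higher and 0 lower in all.

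Members near 0 changed sign. With total count scaling Mtor was at -0.031, Tsc1 at -0.0095, Rheb at -0.062 and Deptor at -0.059 on the log2 scale, and Deptor was at -0.00022 with upper quartile factors and at -0.0074 in limma voom. Without single mice Met ranged from -0.46 to 0.035, Mtor from -0.065 to 0.16, Tsc1 from -0.14 to 0.21, Rheb from -0.19 to 0.22 and Deptor from -0.063 to 0.10. The causes of these shifts were not tested. Rptor, Tsc2, Rps6kb1 and Eif4ebp1 kept their sign in all alternatives, and so did Hgf, whose difference in CPM stayed below 0. The 13 other named genes were refitted under alternatives added after the data were seen, and none changed sign. Counts of 34 to 1024 per mouse limit the tested members. No paired analysis was possible because the labels give no numbers shared by the groups.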
